A study of Oryctolagus cuniculus with 24 samples.

Results

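The genes described here were 94 genes with a higher level in intestinal epithelial cells (IEC) than in lamina propria mononuclear cells (LPMC) of the healthy rabbit caecum, whose level lay within set bands of that of the healthy animals when ova and colitis were combined. They were selected on measured values, from 17318 genes. RNAseq was run on IEC and LPMC of 12 New Zealand White rabbits, with 4 groups of 3 animals and 24 libraries in all. Veh Water rabbits received the vehicle by mouth and fennel tea to drink, and TSO Water rabbits received 3 oral doses of 2500 Trichuris suis ova (TSO) and the tea. Veh DSS rabbits received the vehicle and 0.1% dextran sulphate sodium (DSS) in the tea for 5 days from day 26, and TSO DSS rabbits received the ova and then DSS. All 12 animals were immunocompetent wild-type rabbits, and tissue was taken on day 35. IEC were the cells that detached from the washed caecum in EDTA, and LPMC were released from the remaining tissue by collagenase and enriched on Ficoll, so both are bulk fractions of the same animal and neither was sorted on a marker. Rabbits are numbered 1 to 3 within their group.

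The caecal epithelium is a single sheet of absorptive, goblet and enteroendocrine cells that is renewed from the crypt base. It absorbs water and salts and separates the lumen from the immune cells of the lamina propria. DSS damages this sheet and induces colitis, and Trichuris suis, the pig whipworm, lodges in the caecal mucosa. Genes that are higher in the epithelial fraction than in the mononuclear fraction of the same caecum serve as a readout of the epithelial programme. The tables name genes by Ensembl identifier alone, and none of the identifiers could be paired with a symbol, so that no function can be given for any of the 94 genes and the labels IEC and LPMC could not be checked against defining markers.

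Selection used reads scaled to a common library total (CPM) and their log2(CPM + 1), averaged over the 3 libraries of a group. A gene had to be nuclear, above 0 in an LPMC library, above 20 CPM in IEC of Veh Water, and more than 2 higher (log2 scale) in IEC than in LPMC of Veh Water. Its level in TSO DSS had to lie within 1 of Veh Water in IEC and within 2 in LPMC. Of 13212 nuclear genes above 0 in an LPMC library, 5441 passed the level in IEC and 131 of these passed the difference between cell types. The band in IEC removed 37 of the 131, all of them lower in TSO DSS, and the band in LPMC removed 0, which left the 94. Within the bands the genes were shifted: in IEC, TSO DSS lay below Veh Water for 92 of the 94, and the median shift was -0.64 (all genes -0.24), whereas in LPMC it lay above for 71 of the 94, and the median shift was 0.59 (all genes 0.08). At the edge of the difference, ENSOCUG00000011981 was in with 2.00 and ENSOCUG00000001651 was out with 1.99. At the edge of the level, ENSOCUG00000022753 was in with 20.4 CPM and ENSOCUG00000018543 was out with 18.6 CPM. At the lower edge of the IEC band, ENSOCUG00000007263 was in at -0.99 and ENSOCUG00000012227 was out at -1.002. The member nearest to the upper edge in IEC was ENSOCUG00000016339 at 0.03, and the members nearest to the edges in LPMC were ENSOCUG00000009608 at -1.47 and ENSOCUG00000008474 at 1.68. Without TSO DSS rabbit 2, 55 genes met the rule in place of 94, all of them among the 94. Leaving out another Veh Water or TSO DSS rabbit gave 91 to 116 genes, which held 70.2% to 97.9% of the 94. With nuclear reads as the library total, 118 genes met the rule and 93 of them were among the 94.

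The 12 libraries of Veh Water and TSO DSS chose the genes. TSO DSS values are given below as a description only, and tests against Veh Water are not independent of the choice. The 12 libraries of Veh DSS and TSO Water, from 6 rabbits, played no part in the choice, and tests were confined to comparisons that include them. IEC libraries held 13148568 to 27479949 reads and LPMC libraries 3685511 to 15770415. Mitochondrial genes took 12.4% to 46.5% of the reads in IEC and 9.06% to 24.98% in LPMC, with the highest shares in IEC of TSO DSS rabbit 3 and of TSO Water rabbit 2, at 41.7% in the latter. The smallest library, LPMC of TSO DSS rabbit 3, had 4 of the 94 genes at 0, and no other library had more than 1. All 94 genes passed the filter on low values in every fit below.

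The 94 genes together held a small share of the nuclear reads in each library, several times larger in IEC than in LPMC. In IEC the share was 1.61%, 2.50% and 2.63% in Veh Water rabbits 1 to 3, 2.99%, 1.76% and 1.84% in TSO Water, 1.83%, 0.965% and 2.07% in Veh DSS, and 1.55%, 2.18% and 1.34% in TSO DSS. The IEC groups overlap, and the lowest share belongs to Veh DSS rabbit 2. In LPMC the share was 0.238%, 0.402% and 0.342% in Veh Water, 0.325%, 0.321% and 0.337% in TSO Water, 0.369%, 0.409% and 0.390% in Veh DSS, and 0.455%, 0.509% and 0.397% in TSO DSS. The Veh DSS libraries all lie above the TSO Water libraries in LPMC, and the lowest IEC share lies above the highest LPMC share. In these bulk fractions, fewer epithelial cells and less RNA per epithelial cell cannot be told apart.

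**Figure D1:**
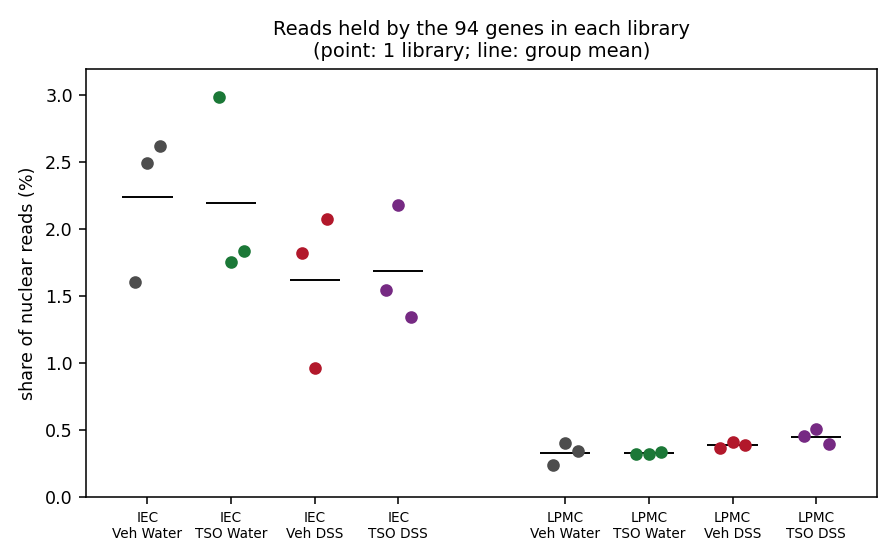
Share of all nuclear reads (percent, linear axis from 0) that fell on the 94 genes in each of the 24 libraries, by cell type and group, with 1 point per library and a line at the group mean of 3 libraries. IEC libraries lie between 0.965% and 2.99% and LPMC libraries between 0.238% and 0.509%.

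The first question was whether the preference for IEC held in rabbits that had no part in the selection. It did in TSO Water, where 93 of the 94 genes were higher in IEC than in LPMC (limma, Benjamini-Hochberg adjusted p under 0.05 and log2 fold change above 1), against 4.51% of the 10057 genes tested. The median log2 fold change of the 94 was 2.50, with quartiles of 1.90 and 3.09, while the median of all genes was 0.01. In 92 of the 94 genes the lowest IEC library of TSO Water was above the highest LPMC library, a separation seen in 11.8% of all genes. The gene that missed was ENSOCUG00000008922 on chromosome 13, with 375, 132 and 129 CPM in IEC and 134, 96.7 and 76.2 CPM in LPMC of rabbits 1 to 3. Its cell types overlap in TSO Water, and its log2 fold change was 0.94 ± 0.35 (SE, limma adjusted p = 0.0914).

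In Veh DSS, 66 of the 94 genes passed the same test and 28 did not, against 1.95% of the 10043 genes tested. The 94 genes had a median log2 fold change of 1.84, with quartiles of 1.48 and 2.30, and the median of all genes was 0.01. IEC and LPMC did not overlap in 89 of the 94 genes, compared with 17.3% of all genes, and all 94 fitted values were above 0. The fit that pairs the cell types of a rabbit called 79 of the 94, against 2.36% of all genes. Without Veh DSS rabbit 1, and likewise without rabbit 3, limma called 0 of the 94 genes and 0.00% of all genes. The median of the 94 was 1.72 and 1.61 in these fits. At an unadjusted p under 0.05 were 80 and 78 of them, all higher in IEC. Of all genes, 8.10% and 4.30% were higher in IEC at this p, and 19.1% and 10.8% differed in either direction. Without rabbit 2, 68 of the 94 were called, against 1.73% of all genes.

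**Figure D2:**
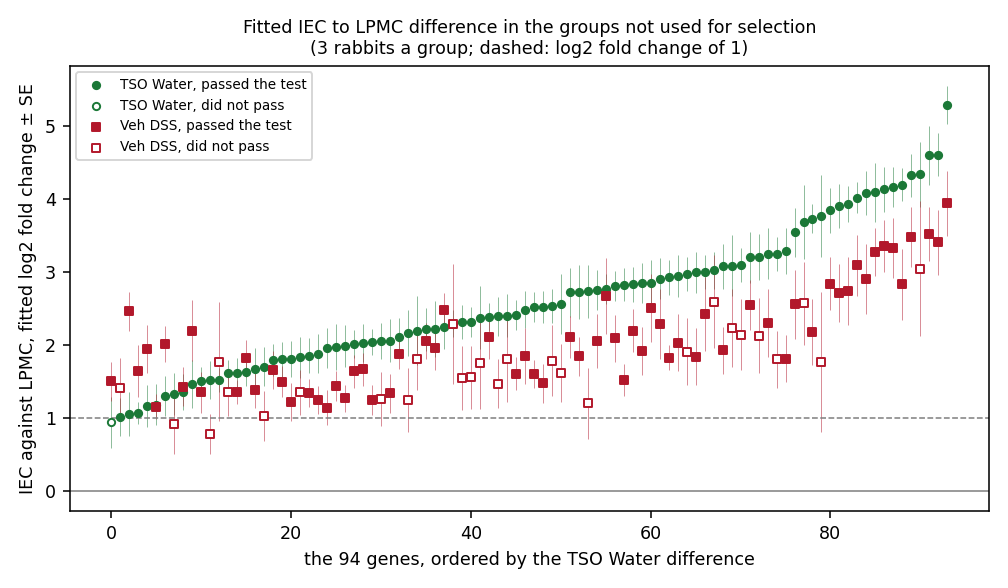
Fitted log2 fold change of IEC against LPMC, with its SE, for each of the 94 genes in TSO Water (circles) and Veh DSS (squares), 3 rabbits a group, ordered by the TSO Water value; filled symbols passed the test (93 in TSO Water, 66 in Veh DSS) and the dashed line marks a log2 fold change of 1. All values are above 0, and 83 of the 94 genes lie lower in Veh DSS than in TSO Water when the difference between groups is fitted.

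Rabbit by rabbit, the median IEC minus LPMC difference of the 94 genes in log2(CPM + 1) was 3.29, 2.00 and 2.24 in TSO Water and 1.98, 1.38 and 2.28 in Veh DSS. On this scale the ranges of both groups overlap, with TSO Water rabbit 1 highest and Veh DSS rabbit 2 lowest. In the libraries that chose the genes it was 2.47, 2.59 and 2.94 in Veh Water and 1.63, 1.94 and 1.22 in TSO DSS. The 10000 background genes were the nuclear genes above 0 in an LPMC library with a mean of at least 1 CPM over the 24 libraries. In all 6 rabbits outside the selection, 92 of the 94 genes were higher in IEC, which was so for 12.1% of these 10000. The exceptions were ENSOCUG00000008474 and ENSOCUG00000027613, both on chromosome 13 and both below 0 in Veh DSS rabbit 2 alone, at -0.11 and -0.33. A difference above 2 in each of the 6 rabbits was kept by 12 of the 94 genes, against 0.27% of the 10000. Taking group means, 64 of the 94 stayed above 2 in TSO Water, 39 in Veh DSS and 28 in TSO DSS. Of the 10000, 1.25%, 0.71% and 0.76% were above 2 in these groups. All 94 were chosen for a mean above 2 in Veh Water, so lower counts elsewhere are partly fixed by the choice. TSO DSS also took part in the choice. Mitochondrial shares differ between these libraries, and on nuclear reads alone the medians were 3.29, 2.57 and 2.57 in TSO Water, 2.23, 1.23 and 2.25 in Veh DSS, and 1.77, 1.99 and 1.97 in TSO DSS. On that scale TSO Water and Veh DSS do not overlap.

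**Figure D3:**
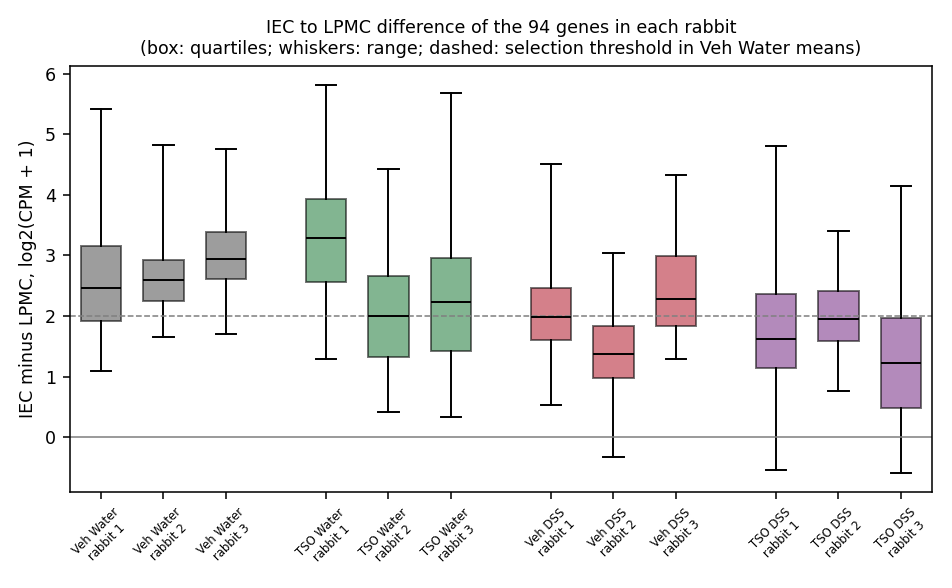
IEC minus LPMC difference in log2(CPM + 1) of the 94 genes in each of the 12 rabbits (box, quartiles with the median; whiskers, lowest and highest gene), with a dashed line at 2, the threshold set on the Veh Water means. Medians run from 1.22 in TSO DSS rabbit 3 to 3.29 in TSO Water rabbit 1, and Veh Water and TSO DSS are the groups that chose the genes.

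Whether the difference between cell types itself changed was tested directly between the groups outside the selection. Veh DSS rabbits received DSS without ova, and TSO Water rabbits received ova without DSS. Effects of ova and of DSS therefore cannot be told apart in this contrast, nor in the same contrast within a cell type. For the contrast of Veh DSS with TSO Water, limma called 0 of the 94 genes and 0.00% of the 10088 genes tested, and edgeR's quasi-likelihood test also called 0 of the 94. The median of the fitted change was -0.76 on the log2 scale for the 94 genes and -0.004 for all genes, and 83 of the 94 were below 0. Without Veh DSS rabbit 2 the median was -0.42. At an unadjusted p under 0.05 stood 16 of the 94 genes (17.0%), 15 with a smaller difference in Veh DSS and 1 with a larger, against 8.49% of all genes. The 15 are 16.0% of the 94, and 1.85% of all genes were lower at this p. The count rested on single rabbits: it was 5 without TSO Water rabbit 1 (5.32%, against 5.58% of all genes lower) and 5 without Veh DSS rabbit 2 (5.32%, against 0.841%), but 28 without Veh DSS rabbit 3 (29.8%, against 1.76%). With nuclear reads as the total it was 26 (27.7%, against 4.32%). These fits did not pair the cell types of a rabbit. The fit that pairs them gave 20 with a smaller difference in Veh DSS (21.3%, against 2.06%). It also gave 2 with a larger difference (2.13%, against 8.26%). A smaller difference in Veh DSS was thus seen in the median and passed limma's test in no gene. DESeq2 called 2 of the 94, ENSOCUG00000016906 and ENSOCUG00000007980, both on chromosome 12 and named after their values were seen. Both (2.13% of the 94) had a smaller difference in Veh DSS, against 0.109% of all genes called in that direction and 2.07% in either. ENSOCUG00000016906 stood at 31.0, 16.3 and 19.1 CPM in IEC of TSO Water, 16.0, 11.4 and 16.3 in IEC of Veh DSS, 1.72, 2.15 and 2.93 in LPMC of TSO Water, and 4.96, 4.12 and 3.95 in LPMC of Veh DSS. Its libraries separate by group in both cell types, in IEC only narrowly, with 16.28 CPM in the highest Veh DSS library and 16.32 CPM in the lowest TSO Water library (log2 change of the difference -1.35 ± 0.31, SE, limma adjusted p = 0.278).

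The most abundant of the 94 genes in IEC of the 6 rabbits outside the selection was ENSOCUG00000022391 on chromosome 10. It stood at 1542, 599.8 and 677 CPM in IEC of TSO Water and at 831, 382 and 1278 CPM in IEC of Veh DSS, against 39.9, 43.2 and 25.6 CPM and 71.2, 51.2 and 87.7 CPM in LPMC. Each IEC value is far above each LPMC value, and the LPMC values of Veh DSS lie above those of TSO Water. Its log2 fold change of IEC against LPMC was 4.61 ± 0.29 in TSO Water (SE, limma adjusted p = 1.6e-04) and 3.41 ± 0.44 in Veh DSS (limma adjusted p = 0.0137).

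ENSOCUG00000011981 on chromosome 16 was next in abundance and among the 5 genes with the smallest difference. Its IEC values were 1302, 533 and 594 CPM in TSO Water and 685, 794 and 996 CPM in Veh DSS, and its LPMC values were 397, 263 and 372 CPM and 337, 356 and 395 CPM. LPMC thus held this transcript at a high level in every rabbit, yet no LPMC library reached an IEC library. It passed the test in both groups, with log2 fold changes of 1.18 ± 0.28 in TSO Water and 1.16 ± 0.17 in Veh DSS (SE, limma adjusted p = 0.0188 and 0.0193). With the alternatives included, it was called in 10 of 12 fits in TSO Water and in 8 of 11 in Veh DSS.

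ENSOCUG00000027626 on chromosome 13, ENSOCUG00000005819 on chromosome 2 and ENSOCUG00000014250 on chromosome 17 completed the 5 most abundant genes. ENSOCUG00000027626 ranged from 391 to 1162 CPM in IEC of TSO Water and from 199 to 752 CPM in IEC of Veh DSS, with 30.6 to 39.4 CPM and 51.0 to 63.8 CPM in LPMC. ENSOCUG00000005819 ranged from 395 to 950.5 CPM and from 205 to 793 CPM in IEC, with 33.8 to 53.5 CPM and 56.4 to 70.5 CPM in LPMC. ENSOCUG00000014250 ranged from 296 to 1017 CPM and from 299 to 678 CPM in IEC, with 18.2 to 37.6 CPM and 39.4 to 59.2 CPM in LPMC. In each of the 3 genes the IEC groups overlap, and the LPMC libraries of Veh DSS all lie above those of TSO Water. All 3 passed the test of IEC against LPMC in both groups.

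**Figure D4:**
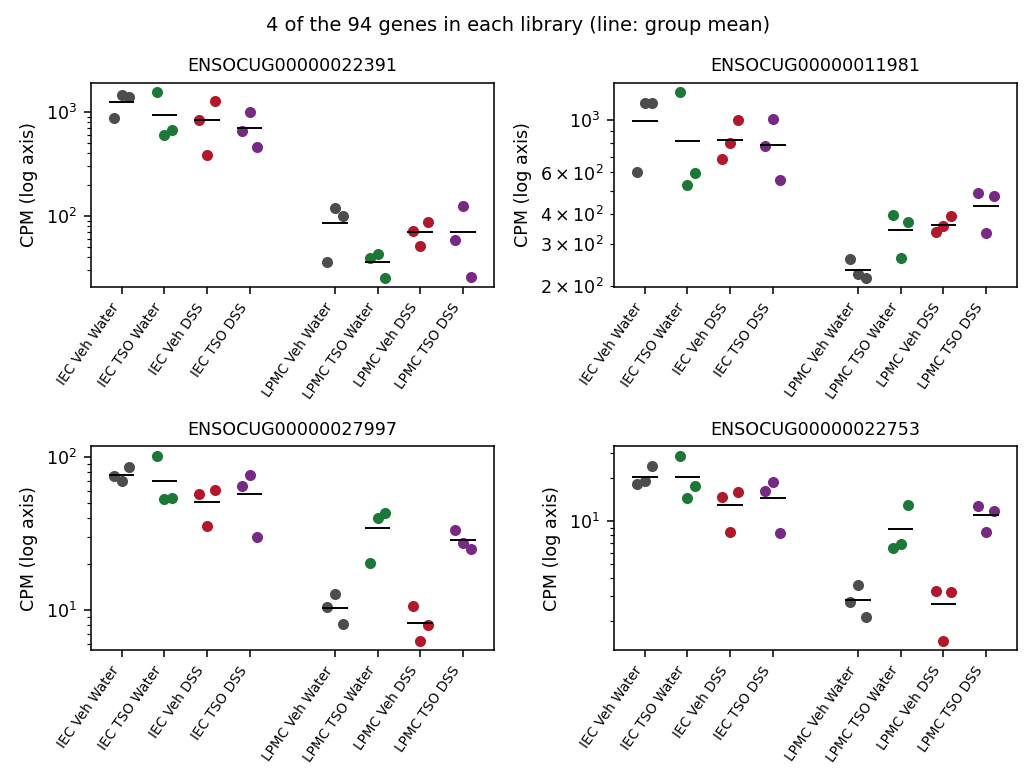
CPM (log axis) of 4 of the 94 genes in each of the 24 libraries, by cell type and group, with a line at the mean of 3 libraries. ENSOCUG00000022391 and ENSOCUG00000011981 are the most abundant in IEC, and ENSOCUG00000027997 and ENSOCUG00000022753 are higher in all 6 LPMC libraries of rabbits given TSO than in all 6 of rabbits given the vehicle.

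The largest mean difference over the 6 rabbits belonged to ENSOCUG00000006954 on chromosome 18. Its IEC values were 603, 347 and 458 CPM in TSO Water and 328, 143 and 463 CPM in Veh DSS, against 9.72, 17.6 and 7.92 CPM and 13.5, 16.5 and 22.1 CPM in LPMC. The difference in log2(CPM + 1) ran from 3.04 to 5.81 over the rabbits, with a mean of 4.60 ± 1.03 (SD, n = 6 rabbits). It was also the gene with the largest fitted value in both groups, 5.29 ± 0.26 in TSO Water (SE, limma adjusted p = 1.1e-04) and 3.95 ± 0.44 in Veh DSS (limma adjusted p = 0.0108). ENSOCUG00000025591 on chromosome 17 followed in Veh DSS, at 336, 152 and 383 CPM in IEC and 23.1, 17.8 and 27.4 CPM in LPMC, with a log2 fold change of 3.52 ± 0.37 (SE, limma adjusted p = 0.0106). ENSOCUG00000022391, ENSOCUG00000011364 on chromosome 7 and ENSOCUG00000023064 on chromosome 10 were the others with the largest differences, and all 5 passed the test in both groups. ENSOCUG00000023064 shows that a large difference did not need a high level, at 26.9 to 93.6 CPM in IEC and 1.42 to 4.16 CPM in LPMC of the 6 rabbits.

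The 5 genes with the smallest mean difference were ENSOCUG00000008922, ENSOCUG00000025590 on chromosome 6, ENSOCUG00000011981, ENSOCUG00000014507 on the X chromosome and ENSOCUG00000008474. ENSOCUG00000014507 stood at 85.0, 35.4 and 35.7 CPM in IEC and 14.1, 18.1 and 17.5 CPM in LPMC of TSO Water, and at 39.2, 28.9 and 62.1 CPM and 26.4, 21.8 and 22.1 CPM in Veh DSS. Its cell types do not overlap in either group, but it missed the test in Veh DSS with the lowest fitted value of the 94 genes there (log2 fold change 0.79 ± 0.28, SE, limma adjusted p = 0.153). In TSO DSS it reached 47.0, 28.0 and 39.3 CPM in LPMC, against 47.1, 61.8 and 31.1 CPM in IEC. ENSOCUG00000008474 also missed in Veh DSS (0.91 ± 0.40, SE, limma adjusted p = 0.228), where IEC of rabbit 2 held 20.6 CPM and LPMC of the same rabbit 22.3 CPM. ENSOCUG00000025590 missed there as well, with 1.41 ± 0.41 (SE, limma adjusted p = 0.108). ENSOCUG00000008922 passed with 1.50 ± 0.27 (SE, limma adjusted p = 0.0305), the reverse of its result in TSO Water. With the alternatives included, ENSOCUG00000008922 was called in 8 of 11 fits in Veh DSS and in 2 of 12 in TSO Water. The change of its difference between these groups was 0.52 ± 0.51 (SE, limma adjusted p = 0.828).

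Over the 6 rabbits outside the selection, the 94 genes had mean levels of 11.5 to 885 CPM in IEC, with a median of 85.4 CPM, and of 1.91 to 353 CPM in LPMC, with a median of 17.4 CPM. None was below 1 CPM in LPMC, 28 lay between 1 and 10 CPM, 59 between 10 and 100 CPM, and 7 at 100 CPM or more. Across the 94 genes, levels in IEC and LPMC of a rabbit were correlated with Pearson's r of 0.75 to 0.94 in log2(CPM + 1), a description over genes of 1 animal that share its libraries, and genes are not independent replicates. Annotation placed the 94 genes on 20 chromosomes. Chromosomes 13, 19 and 1 held 10, 8 and 7 of them (10.6%, 8.51% and 7.45%), where 10.5%, 6.54% and 7.98% of the 5441 genes above the IEC level lie. Chromosomes 11 and 15 held 0, where 2.28% and 2.78% of the 5441 lie. Chromosomes 10 and 20 held 5 and 4 (5.32% and 4.26%, against 1.98% and 1.65%), and chromosome 3 held 2 (2.13%, against 5.83%). These shares were not tested.

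Levels in IEC varied between rabbits in the same sense for most of the 94 genes. Of the 6 IEC libraries outside the selection, TSO Water rabbit 1 had the highest value of 84 of the 94 genes, and Veh DSS rabbit 2 had the lowest value of 73. No share over all genes was taken for such counts in IEC or LPMC. A trait of the 94 and a shift of a whole library therefore cannot be told apart here. In LPMC the highest value fell in TSO Water rabbits 1 to 3 for 8, 6 and 9 genes and in Veh DSS rabbits 1 to 3 for 22, 24 and 25 genes. The lowest fell in TSO Water rabbits 1 to 3 for 33, 17 and 19 genes and in Veh DSS for 10, 12 and 3, so in LPMC no single library held most of the extremes. The mitochondrial share of reads was 17.4% in IEC of TSO Water rabbit 1 and 12.4% in IEC of Veh DSS rabbit 2, the lowest of the IEC libraries. Its part in these levels was not tested.

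The widest range in IEC was found in genes of modest level. ENSOCUG00000016661 on chromosome 5 stood at 133, 24.3 and 58.5 CPM in IEC of TSO Water and at 39.2, 5.28 and 64.0 CPM in IEC of Veh DSS, with 0.507 to 4.09 CPM in the 6 LPMC libraries. It passed the test in TSO Water with a log2 fold change of 4.34 ± 0.45 (SE, limma adjusted p = 6.1e-04) and missed it in Veh DSS with 3.05 ± 0.93 (limma adjusted p = 0.117), where it passed with the rabbit as a replicate block (limma adjusted p = 0.0185). ENSOCUG00000026887 on chromosome 10 ranged from 9.49 to 99.1 CPM in the 6 IEC libraries. ENSOCUG00000027613 held 58.5, 20.5 and 24.7 CPM in IEC of TSO Water and 10.9, 2.41 and 26.6 CPM in IEC of Veh DSS. Its LPMC values of 3.45, 0 and 2.06 CPM and of 0, 3.30 and 5.26 CPM include libraries with no read. Its cell types overlap in Veh DSS, where the 2.41 CPM in IEC of rabbit 2, which rest on 47 reads, lie below LPMC of rabbits 2 and 3.

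The narrowest range in IEC was found in ENSOCUG00000001219 on chromosome 14, ENSOCUG00000004077 on chromosome 4 and ENSOCUG00000013753 on chromosome 1. ENSOCUG00000001219 stood at 121, 70.0 and 78.3 CPM in IEC of TSO Water and at 79.7, 63.1 and 96.0 CPM in IEC of Veh DSS, against 18.7 to 35.8 CPM in LPMC. ENSOCUG00000004077 ranged from 18.6 to 35.9 CPM in IEC and from 6.48 to 11.2 CPM in LPMC, and ENSOCUG00000013753 from 34.0 to 60.9 CPM and from 9.45 to 20.9 CPM. All 3 passed the test of IEC against LPMC in both groups, with log2 fold changes of 1.22 to 1.86. In Veh DSS, ENSOCUG00000013753 passed narrowly (limma adjusted p = 0.0475) and was called in only 4 of 11 fits, with 0.93 to 1.55 and adjusted p up to 0.411 over them, and not with the rabbit as a replicate block (limma adjusted p = 0.0609). ENSOCUG00000004077 was called in 7 of the 11 fits and ENSOCUG00000001219 in 9.

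The next question was whether the 94 genes differed between treatments within a cell type. In IEC of Veh DSS against TSO Water, limma called 0 of the 94 genes, against 0.0925% of the 9734 genes tested, and edgeR's quasi-likelihood test and DESeq2 also called 0 of the 94 (DESeq2, 2.50% of all genes). The median log2 fold change of the 94 was -0.39, that of all genes -0.02, and 90 of the 94 were below 0. The median was -0.15 without Veh DSS rabbit 2, -0.18 without TSO Water rabbit 1, -0.64 without Veh DSS rabbit 3, and -0.25, against 0.11 for all genes, without TMM scaling. At an unadjusted p under 0.05 were 7 of the 94 (7.45%), all lower in Veh DSS, against 1.81% of all genes lower and 6.00% in either direction. The groups did not overlap in 2 of the 94 (2.13%), both lower, against 1.35% of all genes lower and 8.77% in either direction. The 7 became 1 without TMM scaling (1.06%, against 0.699% of all genes lower). With a rabbit left out, the lower genes ran from 2, without TSO Water rabbit 1 (2.13%, against 3.19%), to 17, without Veh DSS rabbit 3 (18.1%, against 1.63%), so the count goes from under the background to above it. Without Veh DSS rabbit 1, limma called 1 of the 94, ENSOCUG00000005317 on chromosome 8, named after its values were seen, against 0.123% of all genes called lower and 1.42% in either direction. It stood at 62.9, 37.6 and 46.2 CPM in IEC of TSO Water and at 31.2, 21.7 and 26.6 CPM in IEC of Veh DSS, which do not overlap (log2 fold change -0.98 ± 0.18, SE, limma adjusted p = 0.610 on all rabbits). In LPMC it lay between 9.60 and 13.4 CPM in both groups.

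High levels in IEC of Veh Water were part of the selection, so a lower level than in those libraries is partly fixed by the choice of the genes, and comparisons with them are not independent of it. Against Veh Water, limma called 0 of the 94 genes in IEC of Veh DSS (0.0893% of 11193 genes tested) and 0 in IEC of TSO Water (0.00% of 10985), as did edgeR's quasi-likelihood test and DESeq2 in both (DESeq2, 3.59% and 0.20% of all genes). In Veh DSS the 94 genes had a median log2 fold change of -0.53 and all genes one of -0.05, with 88 of the 94 below 0, and without Veh DSS rabbit 2 the median was -0.17. Of the 94, 7, all lower, were at an unadjusted p under 0.05 (7.45%, against 2.24% of all genes lower and 8.75% in either direction). This count was 21 (22.3%, against 3.60% of all genes lower) without Veh Water rabbit 1, which is also the fit on room A rabbits, 16 without Veh DSS rabbit 3 (17.0%, against 1.64%), 3 without Veh Water rabbit 2 (3.19%, against 1.21%), and 4 without Veh Water rabbit 3 or Veh DSS rabbit 2 (4.26%, against 1.04% and 1.30%). In TSO Water the median of the 94 and that of all genes were both -0.02, with 44 above 0. At an unadjusted p under 0.05 were 0 of the 94, against 3.39% of all genes. This count reached 8 without Veh Water rabbit 1, all lower (8.51%, against 1.72% of all genes lower). It was 7 without TSO Water rabbit 1, all lower (7.45%, against 2.04%). Among room A rabbits it was 9, with 8 lower (8.51%, against 1.16%) and 1 higher (1.06%, against 1.83%). Without Veh Water rabbit 3 or TSO Water rabbit 2 it was 2, both higher (2.13%, against 1.43% and 2.01% of all genes higher). On CPM of recovered reads, in place of the deposited signal, the TSO Water median was -0.24 for the 94 genes and -0.20 for all genes, and with each rabbit left out in turn that of the 94 ran from -0.25 to 0.14, so this median has no stable sign. On the scale of the selection, all 94 genes stayed within 1 of Veh Water in IEC of TSO Water and 90 of 94 in IEC of Veh DSS, as did 98.3% and 92.6% of the 10000 background genes. A band of this width is therefore met by most genes.

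**Figure D5:**
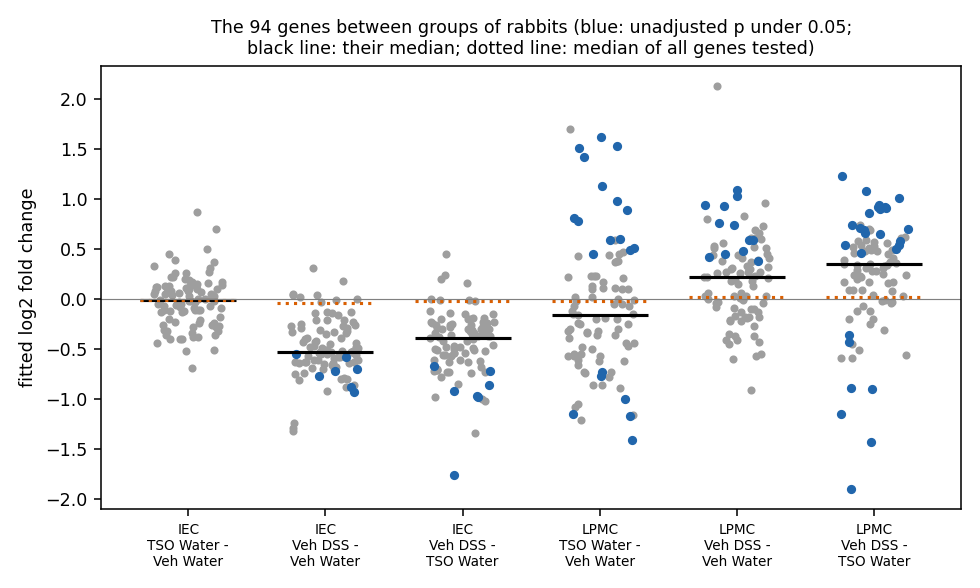
Fitted log2 fold changes of the 94 genes (points, spread sideways to separate them) in 6 comparisons between groups of 3 rabbits, with blue points at an unadjusted p under 0.05, a black line at the median of the 94 and a dotted line at the median of all genes tested. Medians in IEC are -0.02, -0.53 and -0.39 and in LPMC -0.16, 0.22 and 0.34 from left to right, and no gene passed the adjusted test.

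In LPMC of Veh DSS against TSO Water, limma called 0 of the 94 genes, against 0.0789% of the 10143 genes tested, and edgeR's quasi-likelihood test called 0 of the 94. More of the genes stood apart before adjustment than in IEC: 27 of the 94 (28.7%) were at an unadjusted p under 0.05, 20 higher and 7 lower in Veh DSS, against 12.1% of all genes, 5.05% higher and 7.09% lower. The 7 lower genes (7.45%) are thus near the background and the 20 higher ones (21.3%) above it. The groups did not overlap in 35 of the 94 (37.2%), 27 higher and 8 lower in Veh DSS, against 17.6% of all genes, 9.60% higher and 7.96% lower. The median log2 fold change was 0.34 for the 94 genes and 0.01 for all genes, and 71 of the 94 were above 0. With each rabbit left out in turn the median stayed between 0.27 and 0.38. DESeq2 called 5 of the 94 (5.32%), 3 higher and 2 lower, named after their values were seen, against 2.95% of all genes, 1.07% higher and 1.87% lower. The higher ones in Veh DSS were ENSOCUG00000015578 on the X chromosome, ENSOCUG00000003823 on chromosome 12 and ENSOCUG00000009863 on chromosome 16, with limma log2 fold changes of 1.23 ± 0.31, 1.07 ± 0.28 and 1.01 ± 0.31 (SE, limma adjusted p = 0.214, 0.223 and 0.278). The lower ones were ENSOCUG00000027997 on chromosome 21 and ENSOCUG00000022753 on chromosome 4.

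ENSOCUG00000027997 stood at 20.3, 39.8 and 42.9 CPM in LPMC of TSO Water and 33.6, 27.4 and 25.2 CPM in LPMC of TSO DSS, against 10.5, 12.6 and 8.07 CPM in Veh Water and 10.6, 6.28 and 8.03 CPM in Veh DSS. All 6 LPMC libraries of rabbits given TSO are above all 6 of rabbits given the vehicle. In IEC it stood at 102, 53.5 and 54.1 CPM in TSO Water and 57.1, 35.3 and 60.6 CPM in Veh DSS, which overlap. In LPMC its log2 fold change of Veh DSS against TSO Water was -1.90 ± 0.31 (SE, limma adjusted p = 0.107).

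ENSOCUG00000022753 had a like order at a lower level, with 6.48, 6.92 and 13.0 CPM in LPMC of TSO Water and 12.8, 8.39 and 11.7 CPM in TSO DSS, against 2.71, 3.56 and 2.15 CPM in Veh Water and 3.23, 1.46 and 3.19 CPM in Veh DSS. Its log2 fold change of Veh DSS against TSO Water was -1.43 ± 0.33 (SE, limma adjusted p = 0.183). Including ENSOCUG00000027997 and ENSOCUG00000022753, 5 of the 94 genes had all 6 LPMC libraries of TSO rabbits above all 6 of vehicle rabbits. The others were ENSOCUG00000001426 on chromosome 4, with 114.5 to 162 CPM against 56.4 to 102 CPM, ENSOCUG00000009401 on chromosome 10, with 25.8 to 39.8 CPM against 15.7 to 23.1 CPM, and ENSOCUG00000025370 on chromosome 19, with 80.9 to 99.3 CPM against 42.2 to 70.9 CPM. The same order was found in 59 of 10106 genes (0.584%). These counts are a description without a test, because a low LPMC level in Veh Water was part of the selection. None of the 94 genes had this separation in IEC.

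Against Veh Water, limma called 0 of the 94 genes in LPMC of Veh DSS (0.125% of 11218 genes tested) and 0 in LPMC of TSO Water (0.0268% of 11175), as did edgeR's quasi-likelihood test in both. In Veh DSS, 12 of the 94 (12.8%) were at an unadjusted p under 0.05, all higher, against 6.10% of all genes higher and 11.5% in either direction, but without Veh Water rabbit 1 there were 8 higher and 14 lower (23.4%, against 11.2%). The median log2 fold change was 0.22, against 0.02 for all genes. That median moves with the Veh Water rabbits: among room A rabbits, which leaves out Veh Water rabbit 1, it was 0.01, and without Veh Water rabbit 2 it was 0.34. In TSO Water, 20 of the 94 (21.3%) were at an unadjusted p under 0.05, 14 higher and 6 lower, against 6.94% of all genes, 4.79% higher and 2.15% lower. Without Veh Water rabbit 1 there were 9 higher and 29 lower (40.4%, against 13.1% of all genes), among room A rabbits 11 higher and 27 lower (40.4%, against 13.2%), and by DESeq2 13 higher and 16 lower (30.9%, against 7.73%), so the split has no stable direction. The median was -0.16, against -0.03. Among room A rabbits, which leaves out TSO Water rabbit 2 and Veh Water rabbit 1, that median was -0.44, without Veh Water rabbits 1, 2 or 3 alone it was -0.40, -0.003 and -0.09, and on CPM of recovered reads, in place of the deposited signal, it was -0.09. DESeq2 called 1 of the 94 (1.06%) higher in Veh DSS, against 1.19% of all genes higher and 2.09% in either direction. It was ENSOCUG00000006703 on chromosome 12, with 119, 168 and 112 CPM against 48.2, 71.1 and 62.6 CPM in Veh Water (limma log2 fold change 1.08 ± 0.25, SE, adjusted p = 0.280). In TSO Water DESeq2 called 5 of the 94 (5.32%), all higher, against 1.20% of all genes higher and 1.29% in either direction. They were ENSOCUG00000027997, ENSOCUG00000022753, ENSOCUG00000008922, ENSOCUG00000000401 on chromosome 3 and ENSOCUG00000013585 on chromosome 13. Since low levels in LPMC of Veh Water were selected, values above Veh Water in LPMC are not independent of the selection.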

How the data were processed

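RNA of IEC and LPMC from 12 rabbits was measured by RNAseq, and replicates are separate animals. The authors deposited 6 tables, 1 per cell type and treated group with Veh Water, of a normalized signal per gene and library. Their log2 ratios, p-values and FDR columns, from the authors' own comparisons, were not used. The submitters' processing notes name FastQC and the build OryCun 2.0, and the authors annotated the Ensembl identifiers with BetterBunny. The aligner, the counting program and the gene models counted are not given in the sources used here. Libraries were poly(A), without strand, so overlapping and antisense genes cannot be told apart. Each table was scaled separately. In all 36 columns, 100% of the values under 1000 were within 0.1 of a whole number of reads, and these recovered reads gave CPM and all fits across tables.

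Fits used limma 3.58.1 (trend) in R 4.3.3 on log2(value + 1), with TMM factors from edgeR 4.0.16 for recovered reads and genes with a mean CPM of at least 1. Comparisons with Veh Water used the deposited signal of the genes marked present. A call needed an adjusted p (Benjamini-Hochberg) under 0.05 together with a change of more than 1 on the log2 scale, and only the compared groups entered a fit. Alternatives were a pseudocount of 0.1, no filter, library size only, library size without mitochondrial genes, edgeR quasi-likelihood and DESeq2 1.42.0 on recovered reads, a replicate block, room A rabbits only, and each replicate left out. Of all genes, 166 were called higher by quasi-likelihood and 231 lower in IEC than in LPMC of Veh DSS, and 467 and 1514 in TSO Water. Scripts were tested on simulated data.

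IEC and LPMC of a rabbit are pairs by design, and their deviations from the group means correlated between -0.16 and 0.42 (median 0.13, 12 pairs). Equal numbers in different groups are different rabbits. Rooms came from the sample metadata of a supplement, and 2 rabbits were in room B. The name table, which lists 38822 RefSeq genes (assembly mOryCun1.1), held 0 of the 17318 identifiers, so marker lists and sequences were not used here. The members, the lists and the rule were chosen with earlier results of these data known. Genes named were the 5 most abundant in IEC of Veh DSS and TSO Water, the 5 largest and 5 smallest mean differences between cell types over these rabbits, up to 2 called genes with the largest fold change per comparison whose groups do not overlap, those at each threshold, and the 3 widest and 3 narrowest ranges in IEC. Precision is set by 3 rabbits a group.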

Additional observations from a re-analysis of the deposited data

How the results depend on the processing

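The count of the 94 genes higher in IEC than in LPMC in TSO Water ran from 86 to 94 over all alternatives. In Veh DSS it ran from 57 to 90 over the alternatives on all 3 rabbits, and from 0 to 68 with a rabbit left out: 0 without rabbit 1, 68 without rabbit 2 and 0 without rabbit 3. With 2 rabbits left, fewer libraries entered those fits. The fits that called 0 of the 94 called 0.00% of all genes, with medians of the 94 still at 1.72 and 1.61. The replicate block, which pairs the cell types of a rabbit, gave 79 in Veh DSS and 92 in TSO Water and, among the 23 named members, added the Veh DSS calls of ENSOCUG00000007263, ENSOCUG00000016661 and ENSOCUG00000026887, ended that of ENSOCUG00000013753 and changed no other. In comparisons within a cell type, equal numbers are different rabbits, and the block there gave 0 calls. DESeq2 called 2 genes for the change of the difference between cell types, 5 in LPMC of Veh DSS against TSO Water, 1 in LPMC of Veh DSS against Veh Water and 5 in LPMC of TSO Water against Veh Water, where limma called 0. The DESeq2 shares over all genes in either direction were 2.07% (0.109% in the direction of the 2), 2.95%, 2.09% and 1.29%, and the cause was not tested. Veh Water libraries took part in the choice of the genes, so calls against Veh Water are not independent of it. Leaving out single rabbits gave 0 to 1 calls in IEC of Veh DSS against TSO Water, the 1 without Veh DSS rabbit 1, where 1.42% of all genes were called. The difference of IEC against LPMC kept its direction in all alternatives for the 23 named members in Veh DSS and in TSO Water. The selection itself, examined after the data were seen, gave 55 to 118 genes. Depth limits genes of a few CPM in LPMC, above all in TSO DSS rabbit 3.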
